A study of Mus musculus with 6 samples.

Results

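The secreted factors described here were 10 genes of the 55385 in the count table of a mouse embryonic stem cell co-culture: the chemokines Ccl2, Ccl7, Ccl28, Cxcl1, Cxcl5 and Cxcl12, the cytokines Il6 and Lif, the colony stimulating factor Csf1 and the Kit ligand gene Kitl. They were chosen by name, and partly from measured values. Ccl28 was chosen from its higher counts in the homozygous deletion libraries of this same table. The other 9 were chosen as factors that feeder fibroblasts are expected to secrete, with the lower fibroblast marker counts of the deletion libraries already known, so that their direction is not independent evidence of a change.

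RNA-seq had been made from mouse embryonic stem cells (mESCs) of the G4 line, a 129/Sv × C57BL/6 F1 hybrid, in 3 genotypes with 2 libraries each. The genotypes were wild-type (WT), heterozygous for a CRISPR-Cas9 deletion of the Wnt6 loop anchor (het) and homozygous for it (homo), the anchor being a Polycomb-bound region that contacts distant developmental genes. Cells of every genotype were kept in medium with added LIF protein on a layer of CD1 feeder cells. Deletion lines came from individual clones, and the labels do not say how many clones stand behind each genotype or whether 2 libraries of a genotype came from separate cultures, so p-values measure the spread between these libraries only.

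Each library held between 23813912 and 28964706 counts, at which 3 counts corresponded to 0.102 to 0.131 CPM, that is counts per 1000000 counts of a library whose size was scaled with a TMM factor. Wnt6 had 11 and 13 counts in the WT libraries, 6 and 4 in het and 0 and 0 in homo. The defining markers of the cultured cells were present: the summed level of 10 pluripotency markers was 3364 and 3437 CPM in WT, 3118 and 3061 in het and 3576 and 3391 in homo. Summed over 30 fibroblast markers, the level was 2628 and 2647 CPM in WT, 1854 and 1794 in het and 1189 and 1170 in homo. In such bulk libraries fewer fibroblasts and less RNA per fibroblast cannot be told apart. Of 10 macrophage markers 3 had enough counts to be tested, Adgre1 had 0 counts in every library, and the summed level was between 10.1 and 14.95 CPM. Most of that sum was Cd68, with means of 11.9 CPM in WT, 12.7 in het and 8.40 in homo. The summed levels of 6 endothelial and 6 stratified epithelium markers were between 16.7 and 19.0 CPM and between 4.94 and 5.895 CPM. The largest part of each was a single gene. Tek had means of 10.4, 12.0 and 10.3 CPM in WT, het and homo, and Krt10 had 3.49, 3.29 and 3.62 CPM.

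Chemokines are small secreted proteins that draw cells along a gradient through G protein-coupled receptors. They fall into a CC family, whose first paired cysteines are adjacent, and a CXC family, in which another residue separates them. Ccl2 and Ccl7 attract monocytes, Cxcl1 and Cxcl5 attract neutrophils, Cxcl12 signals through Cxcr4 to stem and progenitor cells, and Ccl28 is a mucosal epithelial chemokine. Il6 and Lif are related cytokines that signal through the shared receptor chain Il6st, and Lif is the factor that keeps mouse embryonic stem cells undifferentiated. Csf1 keeps macrophages alive, and Kitl is the ligand of the receptor kinase Kit in germ cells, melanocytes and blood progenitors. Feeder fibroblasts are used in stem cell culture in part because they secrete factors of this kind.

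In the GRCm38 build, several of the genes lay in clusters. Ccl2 (chr11:82035571-82037453) and Ccl7 (chr11:82045712-82047525) were neighbours 8.3 kb apart on the plus strand. Cxcl5 (chr5:90759360-90761624) and Cxcl1 (chr5:90891241-90893115) lay 129.6 kb apart in the CXC cluster, while Il6 (chr5:30013114-30019981) was elsewhere on that chromosome. The others stood alone at chr11:4257557-4272514 (Lif), chr6:117168535-117181367 (Cxcl12), chr10:100015630-100100416 (Kitl), chr13:119623819-119654359 (Ccl28) and, on the minus strand, chr3:107741048-107760469 (Csf1). The annotation overlapped a member with another gene in a single place, Gm17268 antisense to Ccl2, which had 0 counts in all 6 libraries.

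RefSeq promoter windows of 300 bases in the GRCm38.p6 assembly were found for 7 of the 10 genes, that is for all but Ccl2, Ccl7 and Cxcl5. A 10-letter motif of the NF-kB type (GGG, any pair of bases, then TTTCC, on either strand) was held by 3 of these 7, Cxcl1, Il6 and Csf1, and by 1.63% of all 32851 windows. The AP-1 type motif TGANTCA, searched on both strands, was found in Ccl28, Il6 and Lif, and in 7.81% of all windows. TATAAA was found in Kitl alone of the 7, and in 13.6% of all windows. Matches of different motifs did not overlap in these genes. A match of letters is a description and does not show binding. The stretches of 160 bases ending 10 bases before the RefSeq start are shown for the 3 genes that held the NF-kB type letters, and for Ccl28, whose counts were highest in homo. Each is printed 5′ to 3′ on the strand of its gene, with the NF-kB type letters in capitals. Cxcl1 lay at chr5:90891075-90891234 on the plus strand, Il6 at chr5:30012944-30013103 on the plus strand, Csf1 at chr3:107760480-107760639 on the minus strand and Ccl28 at chr13:119623649-119623808 on the plus strand, the last with none of the 3 motifs in the stretch.
Cxcl1: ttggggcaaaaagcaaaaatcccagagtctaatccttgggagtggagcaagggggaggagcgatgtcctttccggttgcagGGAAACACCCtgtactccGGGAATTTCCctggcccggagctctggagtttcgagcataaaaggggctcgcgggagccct
Il6: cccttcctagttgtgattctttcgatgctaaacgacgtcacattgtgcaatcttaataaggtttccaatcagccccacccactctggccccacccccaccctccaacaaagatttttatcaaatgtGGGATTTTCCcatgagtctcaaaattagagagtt
Csf1: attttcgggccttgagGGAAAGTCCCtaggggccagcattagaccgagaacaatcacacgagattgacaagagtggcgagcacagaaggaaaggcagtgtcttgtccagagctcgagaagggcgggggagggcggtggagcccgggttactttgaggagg
Ccl28: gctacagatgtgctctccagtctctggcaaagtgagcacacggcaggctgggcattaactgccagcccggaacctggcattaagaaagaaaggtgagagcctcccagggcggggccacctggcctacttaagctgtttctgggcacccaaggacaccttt

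The 10 genes spanned a wide range of levels, from the abundant Csf1 to Ccl28. Per kilobase of annotated exon, WT levels were 33.5 ± 0.409 CPM per kb (mean ± SD, n = 2) for Csf1, 5.81 ± 0.00939 for Ccl2, 3.96 ± 0.289 for Lif, 3.76 ± 0.818 for Ccl7, 1.44 ± 0.00682 for Cxcl12, 0.965 ± 0.0694 for Kitl, 0.623 ± 0.0489 for Cxcl5, 0.2503 ± 0.0566 for Il6, 0.207 ± 0.144 for Cxcl1 and 0.0302 ± 0.00299 for Ccl28. Lif and Ccl7 overlapped in this order, as did Il6 and Cxcl1, and the remaining neighbours did not overlap between the WT libraries. In homo the order was led by Csf1 at 14.7 ± 0.265 CPM per kb, with Lif at 3.01 ± 0.108 above Ccl7 at 2.44 ± 0.401 and Ccl2 at 2.32 ± 0.463. Kitl at 0.853 ± 0.0476 CPM per kb then stood above Cxcl12 at 0.735 ± 0.00443, and Il6 at 0.0676 ± 0.00610 stood below Ccl28 at 0.113 ± 0.0316. Among these homo levels, those of Ccl7 and Ccl2 overlapped. All 10 genes passed the filter of at least 10 counts in at least 2 libraries, Ccl28 through the homo libraries only.

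**Figure D1:**
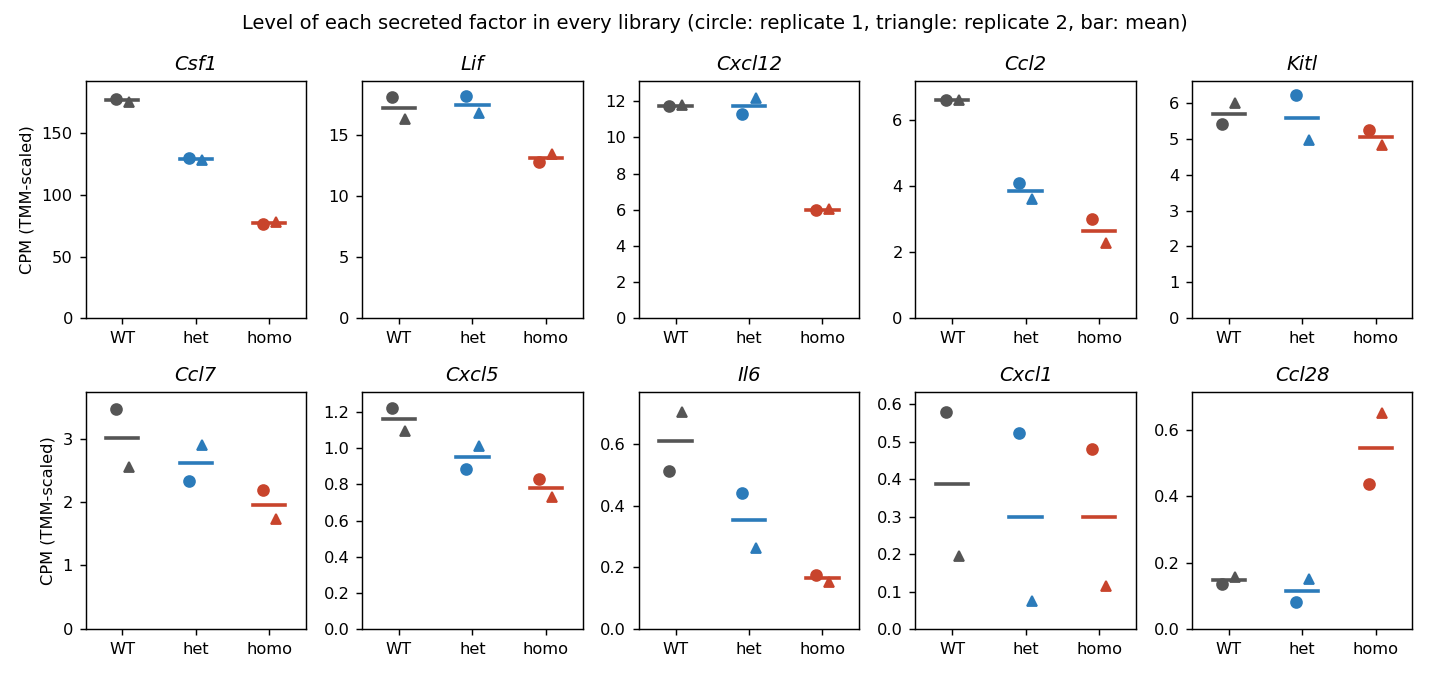
Level of each of the 10 secreted factors in CPM (linear axis from 0, scaled with TMM factors) in the 6 libraries, by genotype, with circles for replicate 1, triangles for replicate 2 and a bar for the mean of 2. Csf1 falls from 177 CPM in WT through 129 in het to 77.4 in homo, Cxcl12 is lower in homo alone, and Ccl28 is highest in homo.

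Comparing het and homo with WT asks whether loss of the anchor on a single allele or on both goes with altered expression, and comparing homo with het asks whether the second allele adds to it. Each pair of these 3 comparisons shares the libraries of a genotype. The deletion was made in the stem cells, and these libraries cannot tell their transcripts from those of the feeder cells. The genotypes also differed in clone and in fibroblast marker level. An effect of the alleles cannot be told apart from these. In homo, 6 of the 9 factors other than Ccl28 were lower than in WT at an adjusted p below 0.05 (edgeR quasi-likelihood test, Benjamini-Hochberg adjustment over 16951 tested genes): Csf1, Ccl2, Cxcl12, Il6, Lif and Ccl7. None of the 9 was higher. Of all tested genes, 10.5% were lower and 10.9% higher by this rule. With a change of more than 2-fold required as well, Csf1, Ccl2 and Il6 were lower, beside 1.86% of all tested genes lower and 0.271% higher. In het, Csf1 and Ccl2 were lower than in WT by adjusted p alone, beside 2.91% of all genes lower and 2.23% higher, and 0 of 9 passed the fold threshold, beside 0.124% lower and 0.0413% higher. Between homo and het, Csf1, Cxcl12, Lif and Ccl2 were lower in homo by adjusted p alone, beside 12.9% of all genes lower and 12.9% higher, and 0 of 9 passed the fold threshold, beside 0.897% lower and 0.496% higher. The median log2 fold change of the 9 was -0.29 in het and -0.64 in homo against WT and -0.43 between homo and het, where the medians of all tested genes were 0.00, -0.006 and -0.02. These counts describe a list that had been chosen with the direction known.

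Csf1, the survival factor of macrophages, was the most abundant of the 10. Its level was 178 and 175 CPM in the WT libraries, 130.2 and 128.5 in het and 76.4 and 78.4 in homo. The 3 genotypes did not overlap, and the het libraries stood between the others. The log2 fold change was -0.45 in het (standard error 0.0430, adjusted p = 1.51e-06, edgeR) and -1.19 in homo against WT (standard error 0.0449, adjusted p = 3.34e-13), or 1.37-fold and 2.28-fold lower. Homo was also lower than het, by 1.67-fold (log2 fold change -0.74, standard error 0.0456, adjusted p = 4.37e-10, edgeR).

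Lif, the cytokine that is also added to the medium as protein, did not follow the same steps. Its level was 18.1 and 16.3 CPM in WT, 18.2 and 16.8 in het and 12.75 and 13.4 in homo. The het libraries overlapped WT, and differed from it by 0.02 on the log2 scale (standard error 0.0839, adjusted p = 0.953, edgeR). Both homo libraries lay below the other 4, with log2 fold changes of -0.40 against WT (standard error 0.0883, adjusted p = 0.00257, edgeR) and -0.42 against het (standard error 0.0889, adjusted p = 0.00166), or 1.32-fold and 1.33-fold lower. Without WT replicate 1 the difference from WT was -0.32 and its adjusted p was 0.0712.

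Il6, an inflammatory cytokine that signals through the same receptor chain as Lif, rested on few counts. The libraries held 15 and 18 counts in WT, 11 and 7 in het and 4 and 4 in homo, which is 0.511 and 0.705 CPM in WT, 0.442 and 0.263 in het and 0.175 and 0.154 in homo. The genotypes did not overlap. Only homo against WT passed the test, by -1.85 on the log2 scale (standard error 0.530, adjusted p = 0.0162, edgeR), 3.605-fold lower, and the adjusted p was 0.114 without WT replicate 2 and 0.0652 without homo replicate 2. Het differed from WT by -0.78 on the log2 scale (standard error 0.441, adjusted p = 0.414, edgeR), and homo from het by -1.075 (standard error 0.601, adjusted p = 0.206).

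Kitl, which encodes the ligand of Kit, did not pass the test in any comparison. Its level was 5.41 and 5.99 CPM in WT, 6.23 and 4.96 in het and 5.24 and 4.84 in homo. The het libraries spanned the WT ones, and the homo libraries lay below WT but overlapped het. The log2 fold changes were -0.03 in het (standard error 0.136, adjusted p = 0.955, edgeR) and -0.18 in homo against WT (standard error 0.140, adjusted p = 0.426), and -0.15 between homo and het (standard error 0.142, adjusted p = 0.484).

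Among the CC chemokines, Ccl2 was lower in both deletion genotypes. Its level was 6.60 and 6.62 CPM in WT, 4.10 and 3.61 in het and 3.01 and 2.27 in homo. No genotype overlapped another. Against WT the log2 fold change was -0.78 in het (standard error 0.142, adjusted p = 0.00183, edgeR) and -1.33 in homo (standard error 0.156, adjusted p = 2.35e-06), or 1.72-fold and 2.52-fold lower. The het difference had an adjusted p of 0.0556 without het replicate 2. Homo was 1.47-fold lower than het (log2 fold change -0.55, standard error 0.174, adjusted p = 0.0241, edgeR), which did not pass without het replicate 1 (adjusted p = 0.158), without homo replicate 2 (adjusted p = 0.212) or with DESeq2 (adjusted p = 0.121).

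Ccl7, the neighbour of Ccl2 that also attracts monocytes, had lower counts and wider spread. Its level was 3.47 and 2.55 CPM in WT, 2.33 and 2.89 in het and 2.18 and 1.73 in homo. The homo libraries lay below the other 4, and het overlapped WT. Homo was 1.56-fold lower than WT (log2 fold change -0.64, standard error 0.213, adjusted p = 0.0375, edgeR). That difference did not pass without WT replicate 1 (log2 fold change -0.39, adjusted p = 0.420), without homo replicate 2 (-0.475, adjusted p = 0.183) or with DESeq2 (adjusted p = 0.1895). The log2 fold changes of het against WT, -0.21 (standard error 0.198, adjusted p = 0.673, edgeR), and of homo against het, -0.43 (standard error 0.222, adjusted p = 0.169), did not pass.

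Ccl28 had its highest counts in homo, and since it was chosen for that, its values are given without a test. The libraries held 4 and 4 counts in WT, 2 and 4 in het and 10 and 17 in homo, which is 0.136 and 0.157 CPM in WT, 0.0804 and 0.150 in het and 0.437 and 0.653 in homo. Both homo libraries lay above the other 4, which were near the level of 3 counts. Summed over the libraries of a genotype, 27 counts in homo against 8 in WT gave a ratio of 3.79 after scaling, and 27 against 6 in het a ratio of 4.74. Het against WT gave 0.7998. With so few counts these ratios are imprecise. Of the 6 stratified epithelium markers 3 were tested and 0 passed, all of them keratin genes. Krt5 had 8 and 7 counts in WT, 7 and 9 in het and 11 and 13 in homo. Krt14 had 35 and 27 in WT, 42 and 39 in het and 35 and 35 in homo. Krt10 had 97 and 94 in WT, 86 and 83 in het and 84 and 93 in homo. The markers not tested had at most 5 counts in a library. The marker lists held no separate list for mucosal epithelium, and the part of any epithelial cells in the Ccl28 counts was not tested.

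Of the CXC chemokines, Cxcl12 was lower in homo only. Its level was 11.7 and 11.8 CPM in WT, 11.3 and 12.2 in het and 5.98 and 6.03 in homo. The het libraries spanned the WT ones, while both homo libraries lay well below the other 4. The log2 fold change in homo was -0.97 against WT (standard error 0.104, adjusted p = 8.57e-07, edgeR) and -0.97 against het (standard error 0.105, adjusted p = 8.77e-07), 1.95-fold lower in each. Het against WT gave 0.00 on the log2 scale (standard error 0.0920, adjusted p = 0.9998, edgeR). The homo differences passed the adjusted p threshold in every fit tried.

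The neutrophil chemokines Cxcl5 and Cxcl1 passed in no comparison. Cxcl5 had 1.23 and 1.10 CPM in WT, 0.884 and 1.015 in het and 0.830 and 0.730 in homo. Its genotypes did not overlap, with log2 fold changes of -0.29 in het (standard error 0.286, adjusted p = 0.693, edgeR) and -0.58 in homo against WT (standard error 0.302, adjusted p = 0.194), and -0.29 between homo and het (standard error 0.318, adjusted p = 0.550). Cxcl1 had 17 and 5 counts in WT, 13 and 2 in het and 11 and 3 in homo, which is 0.579 and 0.196 CPM in WT, 0.523 and 0.0752 in het and 0.480 and 0.115 in homo. All genotypes overlapped, and replicate 1 was above replicate 2 in each of the 3, as it was for 2005 of the 16951 tested genes (11.8%) and for no other of the 10. Its log2 fold changes were -0.44 in het (standard error 0.692, adjusted p = 0.827, edgeR) and -0.47 in homo against WT (standard error 0.703, adjusted p = 0.701), and -0.02 between homo and het (standard error 0.763, adjusted p = 0.989).

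**Figure D2:**
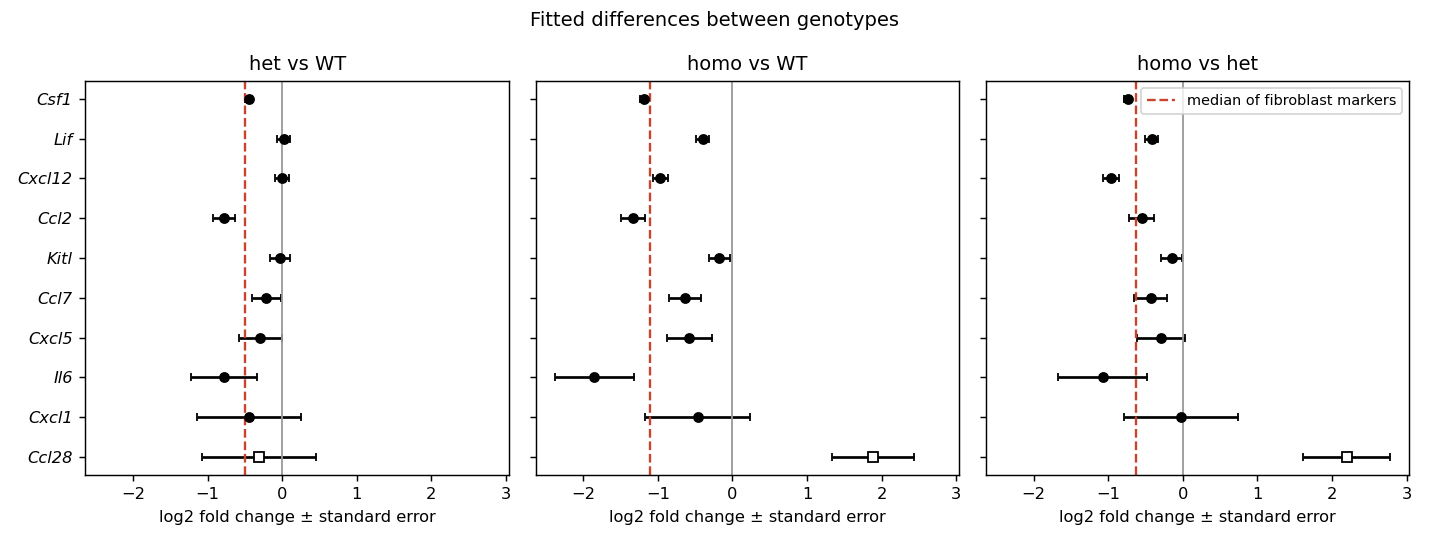
Fitted log2 fold change (x axis) of each secreted factor in het against WT, homo against WT and homo against het, with bars of 1 standard error from edgeR. The dashed line is the median of the tested fibroblast markers, and Ccl28 is drawn as an open square because it was chosen from its values. In homo against WT, Cxcl12 at -0.97, Csf1 at -1.19 and Ccl2 at -1.33 lie near the marker median of -1.11. Il6 at -1.85 lies below it, and Lif at -0.40 and Kitl at -0.18 lie nearer to 0. In het against WT, Cxcl12 at 0.00 lies apart from the marker median of -0.50.

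Most fibroblast markers were lower in the same libraries. By adjusted p (edgeR), 2.91% of all tested genes were lower and 2.23% higher in het than in WT. In homo these shares were 10.5% and 10.9%, and between homo and het 12.9% each. Of the 30 fibroblast markers 28 were tested. In het 21 were lower than WT by adjusted p (edgeR), with 0 past the fold threshold and a median log2 fold change of -0.50, beside 0.00 over all tested genes. In homo 25 were lower and 0 higher, 19 of them past the fold threshold, with a median of -1.11 and a range from -1.40 to 0.04. Between homo and het 23 were lower and 1 higher, with a median of -0.62. Pluripotency markers had medians of -0.19 in het and 0.035 in homo against WT, with 6 lower in het and 1 lower and 1 higher in homo. Between homo and het 8 of the 10 were higher and 0 lower, with a median of 0.19. Of the 3 tested macrophage markers, Cd68 was lower in homo than in WT, with a log2 fold change of -0.50 (adjusted p = 0.0016, edgeR). Ptprc, at 0.24 (adjusted p = 0.689, edgeR), and Cd14, at -0.24 (adjusted p = 0.711), did not pass. The 7 macrophage markers not tested had at most 9 counts in a library. The part of the fibroblast content in the levels of the secreted factors was not tested.

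Each factor was therefore also set against the summed counts of the fibroblast markers in the same library, as a value without a test. That sum was itself lower in both deletion genotypes. It was 2628 and 2647 CPM in WT, 1854 and 1794 in het and 1189 and 1170 in homo. A factor of unchanged CPM is therefore higher on this scale in het, and more so in homo. Per 1000 marker counts, Csf1 had 67.8 and 66.2 counts in WT, 70.2 and 71.65 in het and 64.25 and 67.0 in homo, so that the genotypes lay within a narrow range. Ccl2 had 2.513 and 2.5 in WT, 2.21 and 2.01 in het and 2.53 and 1.94 in homo, the homo libraries spanning the WT ones. Cxcl12 had 4.46 and 4.45 in WT, 6.09 and 6.79 in het and 5.03 and 5.16 in homo, highest in het. On this scale Lif and Kitl were higher in both deletion genotypes. By CPM neither was called higher than WT, and Lif was lower in homo (log2 fold change -0.40, adjusted p = 0.00257, edgeR). Lif had 6.89 and 6.17 counts per 1000 marker counts in WT, 9.82 and 9.34 in het and 10.7 and 11.5 in homo. Kitl had 2.06 and 2.26 in WT, 3.36 and 2.765 in het and 4.41 and 4.14 in homo, and for both genes no genotype overlapped another. The log2 ratio of homo to WT on this scale was -0.03 for Csf1, -0.165 for Ccl2, 0.19 for Cxcl12, 0.54 for Ccl7, 0.59 for Cxcl5, 0.765 for Lif, 0.772 for Cxcl1, 0.98 for Kitl, -0.73 for Il6 and 3.06 for Ccl28, with a median of 0.56 over the 10. That median takes in Ccl28, which was chosen from its higher counts in homo, so it is partly drawn from the choice itself. Among the other 9 the middle value was that of Ccl7, 0.54. Over the 10, the median was 0.26 without WT replicate 2, 0.29 without homo replicate 1 and 0.73 without WT replicate 1. Cxcl1 was at -0.58 without homo replicate 1.

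**Figure D3:**
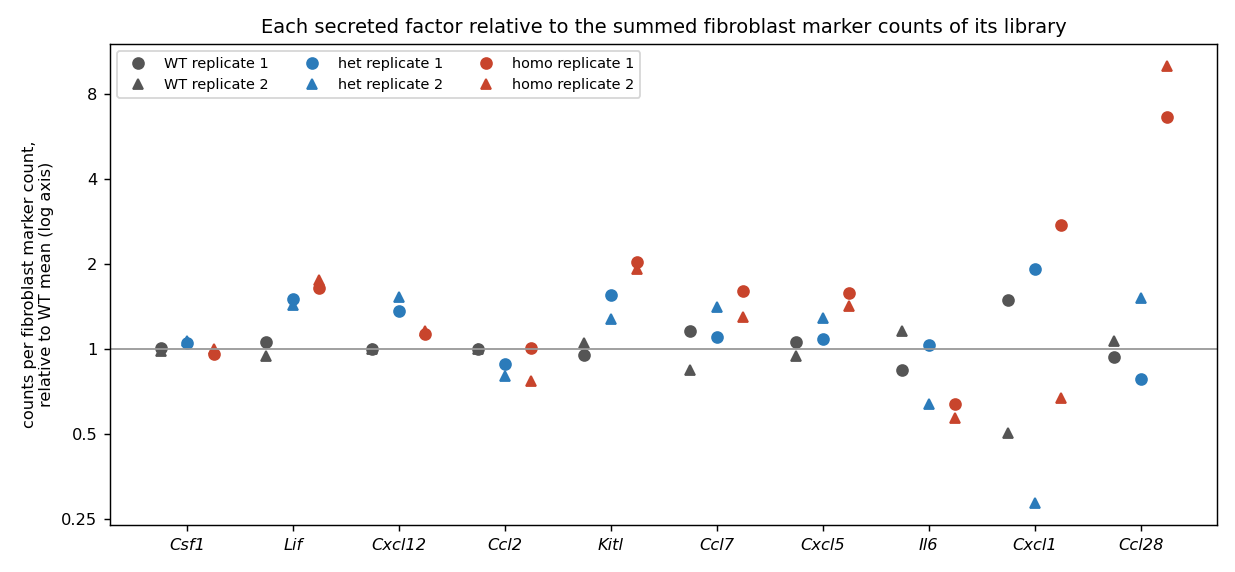
Counts of each secreted factor per fibroblast marker count in the same library, divided by the WT mean (log axis, 1 is the WT mean), with colours for genotypes, circles for replicate 1 and triangles for replicate 2. Csf1 stays close to the WT mean in all 6 libraries. Lif and Kitl step up from WT through het to homo. A factor of unchanged CPM would also step up, since the marker sum falls in that order. The 2 libraries of each genotype lie far apart for Cxcl1.

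Receptors of the 10 factors were measured in the same libraries. Of 13 receptor genes 7 were tested, and none passed in either comparison with WT. Il6st, the signalling chain shared by Il6 and Lif, had mean levels of 74.3 CPM in WT, 80.95 in het and 67.4 in homo. It was lower in homo than in het by a log2 fold change of -0.26 (adjusted p = 7.15e-04, edgeR), the single receptor to pass there. By this rule 12.9% of all tested genes were lower in homo than in het. Lifr, the ligand-binding chain for Lif, had 43.0, 41.1 and 43.4 CPM in WT, het and homo. Kit, the receptor of Kitl, had 17.3, 14.55 and 16.7 CPM. Ackr3, an atypical receptor of Cxcl12, had 5.004, 5.365 and 4.745 CPM, and Il6ra, the Il6-binding chain, had 2.06, 2.88 and 2.41 CPM. Cxcr4, the signalling receptor of Cxcl12, had 0.834, 0.872 and 1.24 CPM, with a log2 fold change of 0.55 in homo against WT (adjusted p = 0.220, edgeR). Csf1r, the receptor of Csf1, was near the count minimum at 0.383, 0.656 and 0.485 CPM. The chemokine receptors Ccr1, Ccr3, Ccr10, Cxcr2 and Ackr1 had at most 10 counts in a library and were not tested, and Ccr2, the main receptor of Ccl2, had 0 counts in all 6, which allows up to 3 counts a library.

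Among 32 other chemokines, 25 had a count and 9 were tested. By adjusted p (edgeR), 10.5% of all tested genes were lower and 10.9% higher in homo than in WT. In het these shares were 2.91% and 2.23%, and between homo and het 12.9% each. In homo against WT, Ppbp, a platelet CXC chemokine (log2 fold change -1.24, adjusted p = 0.00252, edgeR), and Cxcl14 (-0.97, adjusted p = 1.97e-06) were lower, while Cxcl16, a chemokine with a membrane-bound form, was higher (0.76, adjusted p = 1.40e-06). Their mean levels in WT and homo were 1.98 and 0.832 CPM for Ppbp, 13.6 and 6.97 for Cxcl14 and 10.5 and 17.85 for Cxcl16. In het, Cxcl14 was lower (-0.39, adjusted p = 0.0317, edgeR) and Cxcl16 (0.67, adjusted p = 4.42e-05) and the interferon-induced Cxcl10 (0.72, adjusted p = 0.0449) were higher. Between homo and het 3 were lower in homo and 0 higher by adjusted p (edgeR). These were Cxcl10 (-0.995, adjusted p = 0.00202), Ppbp (-0.91, adjusted p = 0.0268) and Cxcl14 (-0.58, adjusted p = 9.85e-04, all from edgeR). The mean levels of Cxcl10 were 1.86 CPM in WT, 3.06 in het and 1.55 in homo. The median of the 9 was 0.03 in het and -0.10 in homo.

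Of 30 other cytokines and growth factors, 22 were tested. In homo 10 were lower than WT and 1 higher by adjusted p (edgeR), beside 10.5% of all tested genes lower and 10.9% higher. Of the lower ones 7 were past the fold threshold, beside 1.86% of all tested genes. The median of the 22 was -0.63, close to the -0.64 of the 9 secreted factors. The largest called falls were in Igf1 (-1.54, adjusted p = 0.0133), Tgfb3 (-1.45, adjusted p = 2.69e-08), Fgf2 (-1.34, adjusted p = 8.16e-11), and Il11, a cytokine of the Il6 family (-1.315, adjusted p = 2.26e-07, all from edgeR). Il33, an alarmin cytokine of the Il1 family, was the single one higher (0.69, adjusted p = 5.96e-05, edgeR), and was named after its value was seen. In het 5 were lower and 1 higher, beside 2.91% and 2.23% of all tested genes. The lowest of these were Tgfb3 (-0.735), Fgf2 (-0.51) and Inhba (-0.49), and the higher one was Tgfb2 (0.39). The median of the 22 in het was -0.20.

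Among 25 NF-kB regulators and inflammatory response genes, 24 were tested and the median was -0.05 in het and -0.20 in homo. In homo 6 were lower and 1 higher than WT by adjusted p (edgeR), beside 10.5% of all tested genes lower and 10.9% higher. Of these, 4 passed the fold threshold, beside 1.86% of all tested genes lower and 0.271% higher. They were the protease inhibitor Timp1 (-1.12), the prostaglandin synthase Ptgs2 (-1.12), the adhesion molecule Vcam1 (-1.03) and the collagenase Mmp13 (-1.005). The higher one was Birc3, an inhibitor of apoptosis (0.43, adjusted p = 0.0464, edgeR), named after its value was seen. In het, Timp1 (-0.55) and Ptgs2 (-0.40) were lower, and the NF-kB subunit Nfkb2 (0.35) and the NF-kB inhibitor Tnfaip3 (0.36) were higher. The shares of all tested genes in het were 2.91% lower and 2.23% higher. Between homo and het 8 were lower and 0 higher, beside 12.9% of all tested genes each way.

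**Figure D4:**
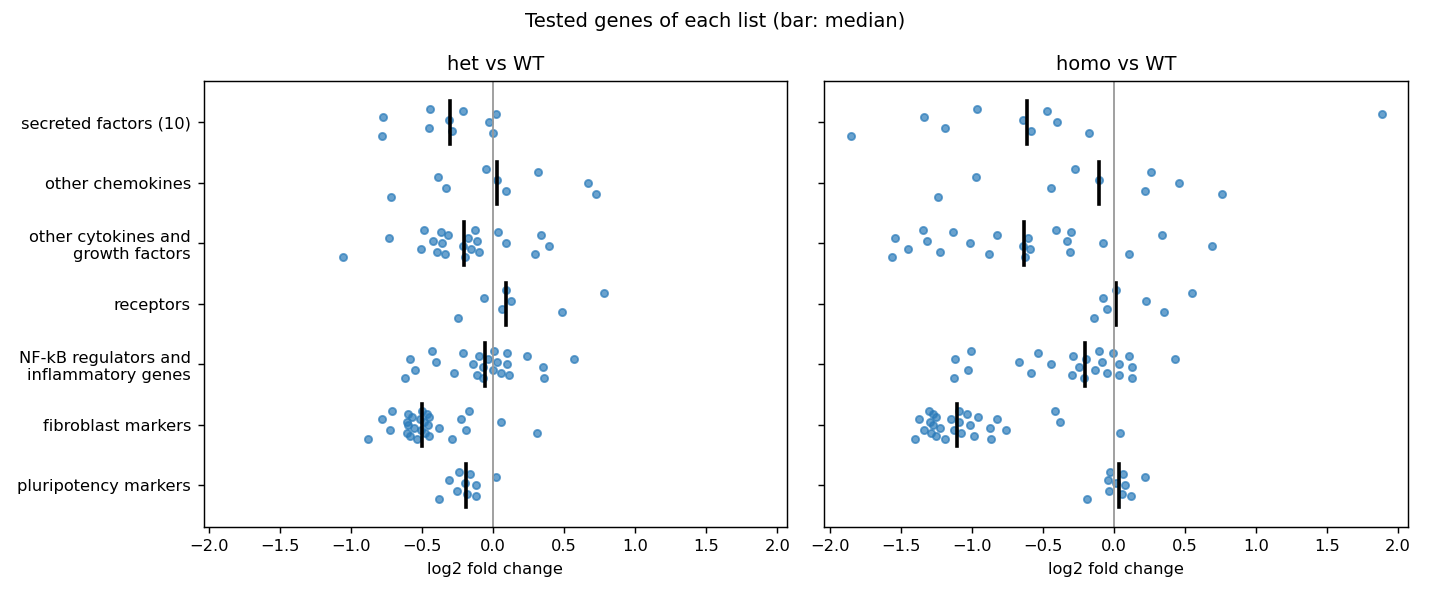
Fitted log2 fold change (x axis) of the tested genes of each list in het and homo against WT, 1 point per gene, with a bar at the median. The row of 10 secreted factors includes Ccl28 at 1.88 in homo and has medians of -0.30 in het and -0.61 in homo, beside -0.50 and -1.11 for the fibroblast markers and -0.19 and 0.035 for the pluripotency markers.

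For the 3 factors with the highest mean CPM, not scaled for length (Csf1, Lif and Cxcl12), the genes with the most similar pattern were sought among 9323 genes with a mean of at least 10 CPM, by the root mean square difference of centred log2 CPM over the 6 libraries. Nearest to Csf1 were Mical2 (0.0277), Flrt2 (0.0355) and Bgn (0.0361), the last a fibroblast marker of the list, at 348 CPM in WT, 248 in het and 146 in homo. Nearest to Lif were Vgll3 (0.0252), Nlgn2 (0.0280) and Lmbr1l (0.0293), with Vgll3 at 34.85 CPM in WT, 35.5 in het and 26.9 in homo. Nearest to Cxcl12, at larger distances, were Platr14 (0.0793), Qsox1 (0.0852) and Zfp640 (0.0872), with Platr14 at 61.9 CPM in WT, 62.4 in het and 32.0 in homo. The distances describe these 6 libraries, which share their genotypes, and carry no test.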

How the data were processed

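Polyadenylated RNA from 6 mESC libraries (WT, het and homo for the Wnt6 anchor deletion, 2 of each) was sequenced after stranded library preparation. Per the submitters' processing notes, the authors used Trimmomatic 0.39, STAR 2.6.1d, SAMtools 1.9, featureCounts 1.6.4 and DESeq2 1.22.2 with the mm10 (GRCm38) genome. The strand setting and annotation release were not given in the sources used here. The deposited values were raw counts per gene, not normalized, for 55385 genes.

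Groups came from the labels. The 16951 genes that reached 10 counts in 2 or more libraries were tested with the quasi-likelihood test of edgeR 4.0.16 (limma 3.58.1, R 4.3.3) on all 6 libraries, with TMM scaling, genotype as the only term and Benjamini-Hochberg adjustment over the tested genes. Thresholds were an adjusted p below 0.05, with or without an absolute log2 fold change above 1. The script was tested on simulated data. DESeq2 1.42.0, other scalings and filters, a replicate block, other samples in the fit, robust dispersion and leaving out each library were alternatives. CPM were computed from TMM-scaled library sizes, and levels per kb from GENCODE vM21 exons (GRCm38), in which 55144 identifiers were found. Promoter sequences came from RefSeq (GRCm38.p6).

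The 10 genes, the other gene lists and the tests were chosen with earlier results of these data known. All 10 were named. From each other list, up to 4 genes a comparison were named, those called with the largest change, and all receptors with a count. Markers whose counts bear on a result were named beside it. Genes of similar pattern were the 3 nearest to each of the 3 factors with the highest mean CPM.

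Replicates were not copies of a library: chi-square per degree of freedom between them was 2.34 in WT, 2.45 in het and 3.65 in homo. The methods state triplicates, and 2 libraries per genotype were analysed here. The limit of 3 counts covers counting error only.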

Additional observations from a re-analysis of the deposited data

Results flagged for a closer look

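The level differed between het and homo for 4 of the secreted factors, tested as the homo against het contrast of the edgeR quasi-likelihood fit. The log2 fold change of homo against het was -0.97 for Cxcl12 (adjusted p = 8.77e-07), with both homo libraries below both het libraries. It was -0.74 for Csf1 (adjusted p = 4.37e-10), -0.42 for Lif (adjusted p = 0.00166) and -0.55 for Ccl2 (adjusted p = 0.0241), again lower in 2 of 2 homo libraries. The Ccl2 difference did not pass with DESeq2 (adjusted p = 0.121), without het replicate 1 (adjusted p = 0.158) or without homo replicate 2 (adjusted p = 0.212). By the same rule 12.9% of all tested genes were lower in homo than in het. For Cxcl12 and Lif the het libraries overlapped WT, whereas for Csf1 and Ccl2 they lay between WT and homo. The fibroblast markers moved in the same contrast, with a median of -0.62, as did the pluripotency markers, of which 8 of 10 were higher in homo and 0 lower, with a median of 0.19. The part of either cell type in these differences was not tested.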

How the results depend on the processing

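With both thresholds, 0, 3 and 0 of the 9 secreted factors other than Ccl28 and 28, 362 and 236 of all genes were called in het against WT, homo against WT and homo against het. With no threshold on the fold change these became 2, 6 and 4 factors and 871, 3633 and 4371 genes. DESeq2 called 11, 205 and 71 genes, leaving the low counts unfiltered gave 49 genes in het, and a filter of at least 30 counts gave 117 genes between homo and het. With total counts only, Cxcl12 was called as well, giving 4 factors in homo against WT and 1 between homo and het. Il6 was lost, leaving 2 factors in homo against WT, with DESeq2, with the filter of 30 counts, without WT replicate 2 and without homo replicate 2, and the other alternatives that kept the fold threshold gave 3. Leaving out each library in turn gave 14 to 42 genes in het (14 without WT replicate 2), 170 to 387 genes (387 without homo replicate 2) and 0 to 1 factors (Cxcl12, without het replicate 1) between homo and het, and a median ratio to the fibroblast markers of 0.26 to 0.73. That median ratio, 0.26 to 0.73, is on the log2 scale. It is the median over the 10 factors of the log2 ratio of homo to WT. Values above 0 are therefore higher in homo per fibroblast marker count. The causes of these shifts were not tested.

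Among the 9 tested factors, signs turned only for differences that had not passed. Cxcl12 in het against WT was 0.009 with total counts only, 0.000 with only the libraries compared and -0.057 to 0.052 with a library left out. The leave-one-out ranges in het against WT were -0.41 to 0.041 for Ccl7, -2.335 to 0.565 for Cxcl1, -0.052 to 0.097 for Lif and -0.20 to 0.13 for Kitl. Cxcl1 ranged from -1.75 to 0.54 in homo against WT and from -1.30 to 1.87 between homo and het, and Kitl from -0.31 to 0.02 between homo and het.

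With the replicate number as a block, 0, 3 and 0 factors and 27, 344 and 225 genes were called, and Cxcl1 between homo and het turned to 0.015. The labels give same-numbered libraries nothing in common but the number. Over the tested genes, replicate differences correlated at 0.0286 (WT with het), -0.0892 (WT with homo) and 0.00844 (het with homo). A shared batch that touches few genes would not show in these values.

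Il6, Cxcl1 and Ccl28 had fewer than 20 counts in every library, which limits their precision. DESeq2 gave no adjusted p for Il6, Cxcl1 or Cxcl5, and with at least 30 counts required none of these was tested. Counts of factors called under those settings are therefore over fewer genes.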
